A study of Mus musculus with 21 samples.

Results

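The genes described here carry out mitosis and cytokinesis. A list of 53 mouse genes was used, grouped by role into the kinetochore and spindle checkpoint, the chromosomal passenger complex, the spindle with its motors and centrosomes, condensin and the mitotic chromosome, cytokinesis, mitotic entry, and anaphase. Each gene was represented by 1 probe set, that with the highest mean over 21 arrays. No probe set of the annotation used named Ccnb1, the cyclin B1 gene, so that 52 genes were measured, all 52 passed the filter on dim probe sets, and they are 52 of the 13850 genes tested.

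RNA came from the rostral cerebral cortex of untreated mouse embryos at embryonic day 14, and 3 lines were studied, each with a different mutation of Pax6. Mutants of the Small-eye allele (Sey, 4 arrays) and their wild-type littermates (3 arrays) were of a C57BL/6J x DBA/2J (B6D2F1) background. Mutants of Leca4 (3 arrays) and their wild-type littermates (4 arrays), and mutants of Leca2 (4 arrays) and theirs (3 arrays), were of the 129 S6 strain. The sources used here do not give the zygosity, the number of embryos behind an array or the part of the protein that each Leca mutation changes; from general knowledge, Sey truncates the protein, and Leca4 and Leca2 alter the PAI and the RED subdomain of its paired domain. The labels call the arrays biological replicates, and every p-value measures the spread between such samples. The Pax6 transcript read 10.55 to 12.26 in log2 units over the 21 arrays, higher on every mutant array than on the controls of its line.

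Pax6 encodes a transcription factor of radial glia, the neural stem cells of the embryonic cortex, which divide at the ventricular surface and give rise to intermediate progenitors and neurons. Transcripts of most mitosis genes accumulate in G2 and mitosis of dividing cells and are low in neurons, which have left the cell cycle. Many of their promoters carry CCAAT boxes, bound by the factor NF-Y, and a cell cycle genes homology region (CHR) with the core TTTGAA, through which the DREAM and B-MYB-MuvB complexes repress and activate them.

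In Sey mutants the mitosis genes rose together. Of the 52 genes, 50 were higher in mutants than in littermates at an adjusted p under 0.05 in limma, none was lower, and 2 (Bub3 and Pttg1) did not pass. Over all genes tested, 10.7% were higher and 9.41% lower by the same test. The median log2 change (mutant minus control) of the 52 genes was 0.67, beside -0.00020 over all genes. For 51 genes every mutant array lay above every control array, which held for 16.5% of all genes, and Pttg1 was the exception. In RNA of a whole piece of tissue, a larger number of dividing cells and more transcript per dividing cell cannot be told apart.

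**Figure D1:**
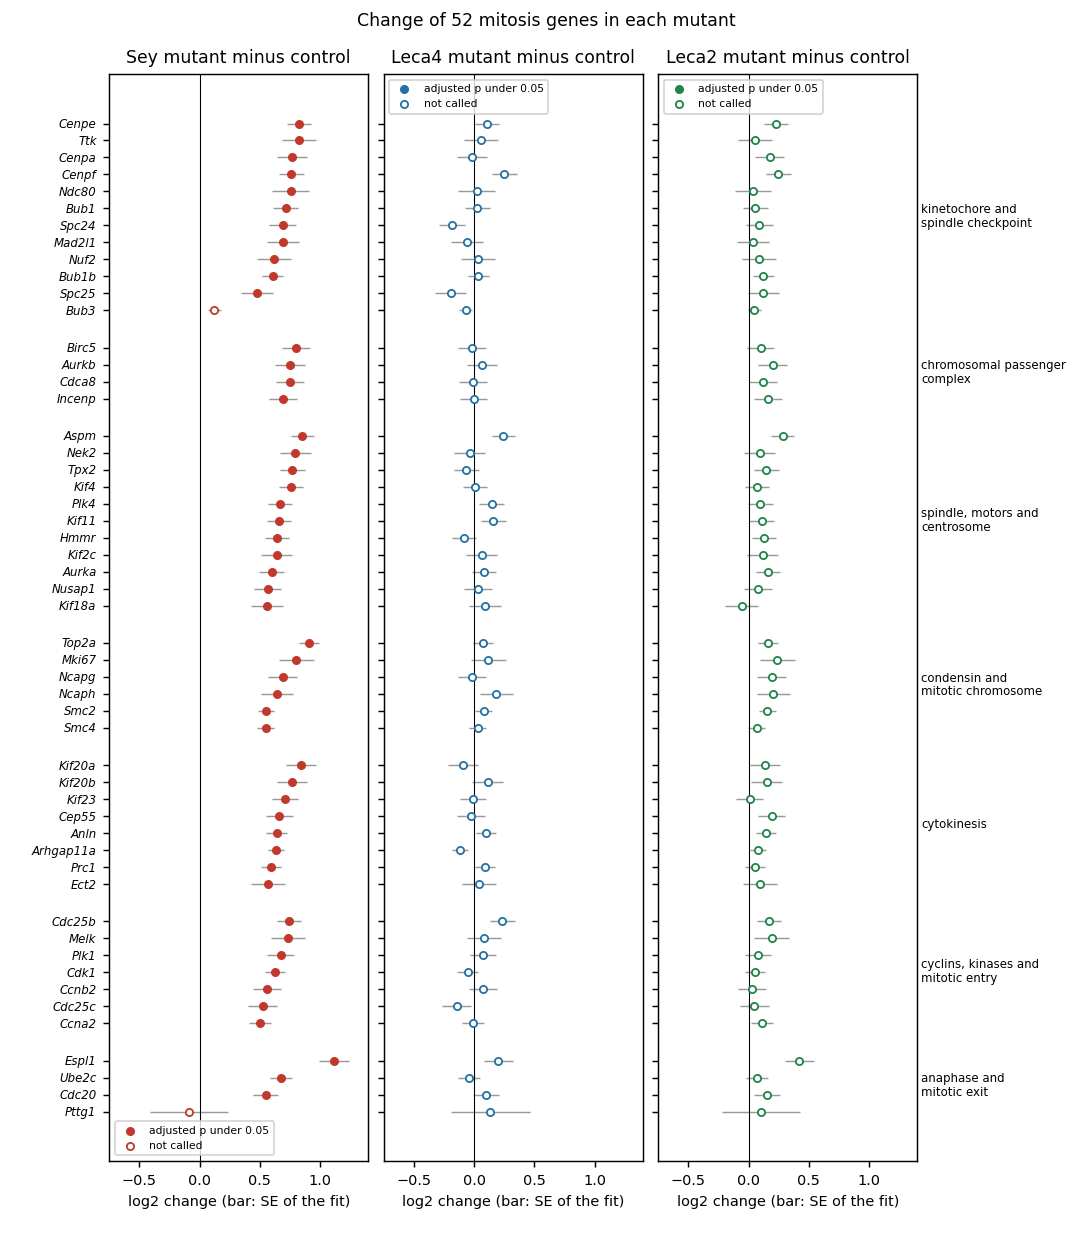
Log2 change, mutant minus littermate control, of the 52 mitosis genes in Sey, Leca4 and Leca2, grouped by role. Points are the fitted changes, bars their standard errors, and filled points mark an adjusted p under 0.05: 50 points are filled in the Sey panel and none in the panels of Leca4 and Leca2.

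No such change was called in the Leca lines. In Leca4 none of the 52 genes passed in limma, their median change was 0.03 (all genes 0.01), and 3 had an unadjusted p under 0.05. In Leca2 none passed, the median was 0.11 (all genes 0.01), and 5 had an unadjusted p under 0.05. Over all genes 5.62% were called in either direction in Leca4 and 0.477% in Leca2 by the adjusted p. The share of all genes with an unadjusted p under 0.05 was not counted. The counts of 3 and 5 genes therefore cannot be set against it.

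**Figure D2:**
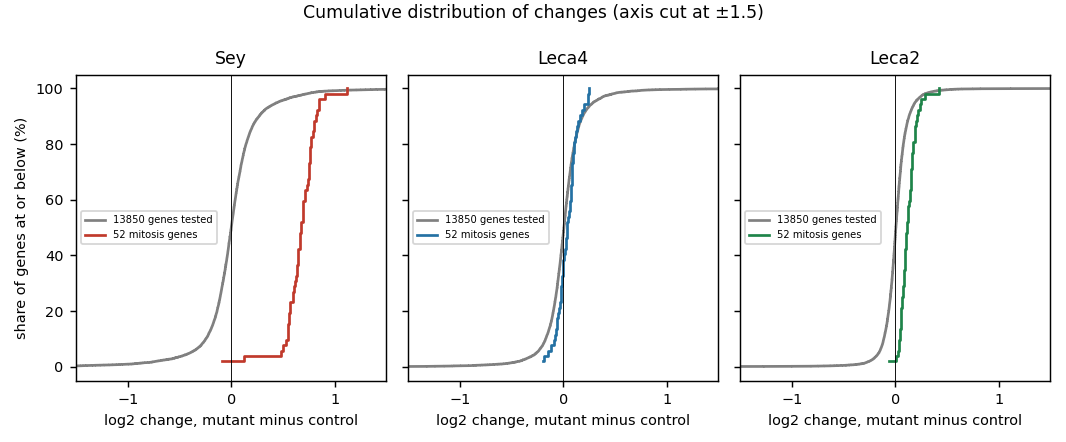
Cumulative share (%) of genes at or below a given log2 change, mutant minus control, for all 13850 genes tested (grey) and the 52 mitosis genes (colour), 1 panel per line. The Sey curve of the mitosis genes rises at its median of 0.67, to the right of all genes, and the Leca4 and Leca2 curves rise at 0.03 and 0.11.

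Promoter sequence was examined for the genes of this list. Genes that rose in Sey outside the lists were not examined as a set. The shares below thus describe the list and not the Sey change. RefSeq promoter windows of mouse build GRCm38.p6, from 250 bases before to 50 bases after the start of transcription, were found for 45 of the 53 genes, Ccnb1 among them. TTTGAA, on either strand, occurred in 31 of the 45 windows (68.9%), against 11.6% of the 11114 windows of genes tested. It lay within 50 bases of the start in 28 (62.2%, against 2.9%). CCAAT, on either strand, occurred in 31 windows (68.9%, against 38.3%), at least 2 copies in 20 (44.4%, against 14.5%), and both motifs in 26 (57.8%, against 4.74%). Matches of the 2 motifs can share at most 1 end base, and a match is a description of the letters in the window.

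Stretches of 100 bases that end just before the annotated start are given for 6 genes with different layouts and for Bub3, the gene of the kinetochore group that did not pass in Sey. They are written 5′ to 3′ on the strand of the gene, and capitals mark TTTGAA or its reverse complement TTCAAA and CCAAT or its reverse complement ATTGG.
Cdc20 (chr4:118437344-118437443, minus strand): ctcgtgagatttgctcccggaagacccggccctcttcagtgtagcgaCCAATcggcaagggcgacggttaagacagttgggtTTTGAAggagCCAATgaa
Ube2c (chr2:164769829-164769928, plus strand): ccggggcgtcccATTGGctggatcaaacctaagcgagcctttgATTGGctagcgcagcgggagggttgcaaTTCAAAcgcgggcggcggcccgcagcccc
Kif11 (chr19:37376282-37376381, plus strand): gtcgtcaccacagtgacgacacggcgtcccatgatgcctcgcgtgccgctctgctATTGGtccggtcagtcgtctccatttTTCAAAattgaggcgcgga
Cdk1 (chr10:69352913-69353012, minus strand): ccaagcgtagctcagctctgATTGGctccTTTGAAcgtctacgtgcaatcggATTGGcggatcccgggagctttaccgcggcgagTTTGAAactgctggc
Ccnb2 (chr9:70421555-70421654, minus strand): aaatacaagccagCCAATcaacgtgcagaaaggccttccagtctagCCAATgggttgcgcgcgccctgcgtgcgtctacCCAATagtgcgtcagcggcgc
Arhgap11a (chr2:113848662-113848761, minus strand): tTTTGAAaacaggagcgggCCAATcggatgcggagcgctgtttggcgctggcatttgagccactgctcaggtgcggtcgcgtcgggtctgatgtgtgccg
Bub3 (chr7:131560270-131560369, plus strand): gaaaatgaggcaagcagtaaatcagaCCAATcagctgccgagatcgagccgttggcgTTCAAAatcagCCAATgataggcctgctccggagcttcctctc
Cdc20 and Kif11 carry a CCAAT box followed by the CHR letters close to the start, and Ccnb2 shows a row of 3 CCAAT boxes in this stretch. The Bub3 stretch holds both motifs too. Among tested genes of the list, the 31 with TTTGAA in the window had a median Sey change of 0.66 (from 0.12 to 1.12), and the 13 with a window that lacks it had a median of 0.69 (from -0.09 to 0.83). Windows of Mad2l1, Nuf2, Birc5, Kif18a, Nusap1, Plk4, Ncaph, Melk and Pttg1 held neither motif, and all of these except Pttg1 were higher in Sey mutants.

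Kinetochores link chromosomes to spindle microtubules, and the spindle checkpoint holds anaphase back until all are attached. Of 12 such genes 11 rose in Sey, with a group median of 0.70. Cenpe, a kinesin of the kinetochore, read 8.56, 8.85 and 8.76 on the log2 scale in the controls and 9.51, 9.65, 9.62 and 9.44 in the mutants, a change of 0.83 ± 0.10 (SE; adjusted p = 6.7e-06 in limma). Bub1, a checkpoint kinase, read 10.14, 10.21 and 10.17 in the controls and 10.98, 10.83, 10.90 and 10.83 in the mutants (0.71 ± 0.10; adjusted p = 5.3e-05). Ndc80, which binds the microtubule, read 7.86, 8.08 and 7.79 against 8.67, 8.48, 8.82 and 8.69 (0.76 ± 0.15; adjusted p = 0.0012). In all 3 genes the lowest mutant array lay above the highest control array.

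The other subunits of the Ndc80 complex changed by 0.62 (Nuf2), 0.69 (Spc24) and 0.48 ± 0.13 (Spc25, the smallest change that passed among all 52 genes; adjusted p = 0.0123). Cenpa, the histone variant that marks the centromere, changed by 0.77, the large kinetochore protein Cenpf by 0.76, and the checkpoint kinase Ttk by 0.82. Bub1b and Mad2l1, which inhibit the activator of the anaphase-promoting complex, changed by 0.61 and 0.69. Bub3, a partner of Bub1 and Bub1b in the same inhibitory complex, stood apart: its probe set 1416815_s_at read 12.13, 12.09 and 12.15 in the controls and 12.27, 12.22, 12.25 and 12.24 in the mutants. Its change of 0.12 ± 0.05 did not pass (unadjusted p = 0.0348, adjusted p = 0.122 in limma), although all 4 mutant arrays lay above all 3 control arrays. Bub3 also varied least between arrays of a group among the 52 genes, with a pooled SD of 0.06.

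The chromosomal passenger complex corrects wrong attachments and later acts at the midzone, and all 4 of its genes rose in Sey, by a median of 0.75. Aurkb, its kinase, read 8.86, 8.96 and 8.90 in the controls and 9.63, 9.61, 9.78 and 9.60 in the mutants (0.75 ± 0.12; adjusted p = 0.00019 in limma). Birc5 (survivin) had the largest change of the 4, from 10.22, 10.39 and 10.42 to 11.08, 11.03, 11.33 and 11.12 (0.80 ± 0.11; adjusted p = 4.5e-05). Incenp, the scaffold, had the smallest on the probe sets used, 0.69 ± 0.12, and Cdca8 (borealin) changed by 0.75. A second Cdca8 probe set of the same mean level (1436847_s_at) changed by 0.48 ± 0.11, less than Incenp. On the probe sets used, no array of a mutant overlapped the controls in these 4 genes.

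Genes of the spindle, its motors and the centrosome rose in 11 of 11 cases, with a median of 0.66. Aspm, a spindle pole protein known for its role in divisions of cortical progenitors, read 9.15, 9.22 and 9.28 in the controls and 10.03, 10.23, 10.08 and 9.92 in the mutants (0.85 ± 0.10; adjusted p = 2.8e-06 in limma). Kif11, the motor that pushes spindle poles apart, read 9.59, 9.62 and 9.76 against 10.14, 10.50, 10.34 and 10.28 (0.66 ± 0.10; adjusted p = 8.7e-05). Tpx2, a spindle assembly factor that activates Aurora A, read 9.42, 9.43 and 9.46 against 10.16, 10.23, 10.26 and 10.18 (0.77 ± 0.11; adjusted p = 2.8e-05). For Aspm and Tpx2 the gap between the groups was wider than the spread within either of them.

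Aurka, the Aurora A kinase itself, changed by 0.60, and Nek2, a kinase of centrosome separation, by 0.79. Plk4, which starts the duplication of centrioles, changed by 0.67. Among the kinesins, Kif18a had the smallest change of the group, 0.56 ± 0.13, the microtubule depolymerase Kif2c changed by 0.64 and the chromokinesin Kif4 by 0.76. The spindle proteins Hmmr and Nusap1 changed by 0.64 and 0.56.

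Condensin folds chromosomes, topoisomerase II untangles them and Mki67, the Ki-67 antigen used to mark dividing cells, coats them. All 6 genes of this group rose in Sey, by a median of 0.67. Top2a (probe set 1454694_a_at) read 11.14, 11.19 and 11.16 in the controls and 12.14, 12.12, 12.04 and 11.98 in the mutants, 1.88-fold higher (0.91 ± 0.08; adjusted p = 2.5e-07 in limma), the lowest p of the 52 genes. Mki67 read 10.48, 10.58 and 10.46 against 11.40, 11.53, 11.23 and 11.08 (0.80 ± 0.14; adjusted p = 0.00044), and its mutant arrays spread wider than its controls. Smc2, an ATPase subunit of condensin, read 10.46, 10.50 and 10.55 against 10.89, 11.10, 11.14 and 11.09 (0.55 ± 0.07; adjusted p = 1.0e-05).

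The condensin genes had smaller changes than Top2a and Mki67: Smc4, the other ATPase subunit, had the smallest change of the group, 0.55 ± 0.07, and Ncapg and Ncaph, of condensin I, changed by 0.69 and 0.64. These differences between genes were not tested.

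Cytokinesis genes rose in 8 of 8 cases, by a median of 0.65. Kif20a, a kinesin of the central spindle, had the largest change of the group: it read 8.80, 8.80 and 8.66 in the controls and 9.64, 9.64, 9.68 and 9.42 in the mutants (0.84 ± 0.13; adjusted p = 6.7e-05 in limma). Anln (anillin), a scaffold of the contractile ring, read 8.70, 8.80 and 8.62 against 9.25, 9.40, 9.38 and 9.35 (0.64 ± 0.09; adjusted p = 2.1e-05). Ect2, which activates the GTPase RhoA at the cleavage site, had the smallest change, from 10.15, 10.33 and 10.35 to 10.53, 10.79, 11.12 and 10.94 (0.57 ± 0.14; adjusted p = 0.0064). Its mutant arrays spread widely, and the lowest came close to the highest control. With embryo sex as a term in the model the change of Ect2 was 0.47 and no longer passed (adjusted p = 0.0558).

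Kif23, the motor of centralspindlin, changed by 0.71, and Prc1, which bundles microtubules of the midzone, by 0.59. The kinesin Kif20b changed by 0.77, the abscission protein Cep55 by 0.66 and Arhgap11a, a RhoA inhibitor of the GAP class, by 0.64.

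Cyclins, kinases and phosphatases of mitotic entry rose in 7 of 7 measured cases, by a median of 0.63. Cdk1, the kinase that drives mitosis, read 10.92, 11.00 and 11.00 in the controls and 11.59, 11.57, 11.66 and 11.58 in the mutants (0.63 ± 0.09; adjusted p = 2.6e-05 in limma). Plk1, a kinase of entry and of spindle assembly, read 8.87, 8.97 and 8.99 against 9.62, 9.64, 9.61 and 9.59 (0.67 ± 0.11; adjusted p = 0.00017). Cdc25b, a phosphatase that activates Cdk1, had the largest change of the group, from 8.72, 8.72 and 8.84 to 9.36, 9.45, 9.62 and 9.58 (0.74 ± 0.10; adjusted p = 2.5e-05). The mutant arrays of Cdk1 and Plk1 lay close together, well clear of the controls. Of the cyclins, Ccna2 had the smallest change of the group on the probe sets used (0.50 ± 0.09) and Ccnb2 changed by 0.56. A second Ccna2 probe set, nearly as bright (1417911_at), changed by 0.71 ± 0.10, so this rank depends on the probe set. The related phosphatase Cdc25c changed by 0.53 and the kinase Melk by 0.73.

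Anaphase begins when Cdc20 and the ubiquitin-conjugating enzyme Ube2c bring about the destruction of securin (Pttg1), which frees separase (Espl1) to cut cohesin. Of these 4 genes 3 rose in Sey, and they held both the largest change and the 1 negative change of the list. Espl1 (probe set 1433862_at) read 8.21, 8.42 and 8.43 in the controls and 9.68, 9.47, 9.41 and 9.33 in the mutants, 2.17-fold higher (1.12 ± 0.12; adjusted p = 1.8e-06 in limma). Cdc20 read 11.81, 11.85 and 11.85 against 12.18, 12.34, 12.52 and 12.51 (0.55 ± 0.11; adjusted p = 0.00088). Ube2c changed by 0.68 ± 0.09. The lowest Espl1 mutant, at 9.33, was far above the highest control, at 8.43.

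Pttg1 split the arrays of the Sey line without regard to genotype. Its probe set 1438390_s_at read 11.62, 11.81 and 10.53 in the controls and 10.55, 11.83, 10.43 and 12.13 in the mutants, and the change of -0.09 ± 0.32 did not pass (adjusted p = 0.893 in limma). A second probe set of Pttg1 (1424105_a_at) gave the same split: 10.15, 10.31 and 8.44 in the controls and 8.26, 10.73, 8.23 and 10.86 in the mutants. Thus control 3 and mutants 1 and 3 were low on both probe sets. On mutants 1 and 3 the other 51 genes were above the control mean. On all 14 arrays of the 129 S6 lines, whose levels were not compared with Sey levels, Pttg1 lay between 13.12 and 13.42. Its pooled SD of 0.47 was the largest of the 52 genes, and its deviations from the group means had a median correlation of 0.01 with those of the other genes over the 21 arrays, a description of arrays that share their lines and normalization.

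**Figure D3:**
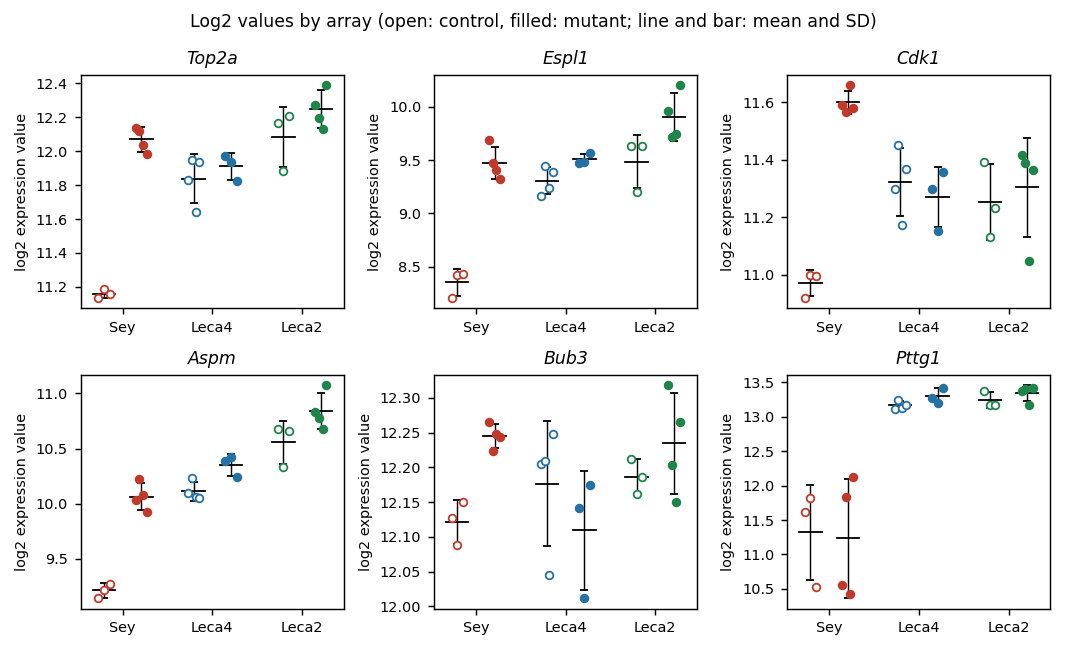
Log2 level of Top2a, Espl1, Cdk1, Aspm, Bub3 and Pttg1 on every array, by line, with controls as open and mutants as filled points, short lines for group means and bars for 1 SD; the axis of each panel has its own range. In the Sey line Top2a lies at 11.14 to 11.19 in controls and 11.98 to 12.14 in mutants, while the Pttg1 arrays of both groups fall into a low and a high set.

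The Sey change was of like size in every mutant array. Expressed against the mean of the Sey controls, the median over the 52 genes was -0.04, 0.02 and 0.03 in the control arrays and 0.63, 0.64, 0.76 and 0.66 in the mutant arrays. Between 51 and 52 genes were above the control mean on each mutant array. Added up on the linear scale, the signal of the 52 genes was 15.90 to 15.97 in log2 units on the Sey controls and 16.51 to 16.61 on the Sey mutants.

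Sex differed between these groups. Read from Xist and Y-linked genes, the Sey controls were 3 males and the mutants 1 male and 3 females. The male mutant array was mutant 2, with a median of 0.64. With a term for sex, 48 genes were still higher in Sey mutants, with a median change of 0.62, and Ect2 and Spc25 were the genes lost. Over all genes, in either direction, 1936 were called with this term and 2791 without it.

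In the Leca lines the same genes moved from array to array within groups. Against the mean of their own controls, the medians over the 52 genes were -0.08, 0.18, -0.11 and 0.02 in the Leca4 controls and 0.07, -0.12 and 0.13 in the mutants. They were 0.17, -0.16 and -0.01 in the Leca2 controls and 0.26, 0.13, -0.12 and 0.21 in the mutants. Mutants and controls overlapped in both lines. The genes went up and down together: the median correlation between pairs of them, over deviations from the group means on 21 arrays, was 0.71. The arrays share lines, normalization and the makeup of each sample. The pooled SD of a gene was 0.16 in the median for the list and 0.11 for all genes, so that the spread between arrays was wider than for a typical gene.

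On most arrays of the Leca lines the neuron marker median was opposite in sign to that of the mitosis genes, with exceptions in both lines. The radial glia median had the sign of the mitosis median on every Leca4 array, but not on every Leca2 array. On Leca2 control 1 (mitosis median 0.17) the neuron and radial glia medians were -0.10 and 0.06. On Leca2 control 2 (-0.16) they were 0.09 and -0.10. On Leca4 control 2, where the mitosis genes had their highest median of that line (0.18), the 14 neuron markers had a median of -0.10 and the 12 radial glia markers of 0.11. On Leca2 mutant 3, where the mitosis genes were low (-0.12), these medians were 0.12 and -0.25. On Leca2 mutant 1, with the highest median of the mitosis genes in the Leca lines (0.26), they were -0.04 and -0.05, and on Leca2 mutant 2 (0.13) they were 0.04 and -0.17. The part of these differences in the scatter of the mitosis genes was not tested.

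**Figure D4:**
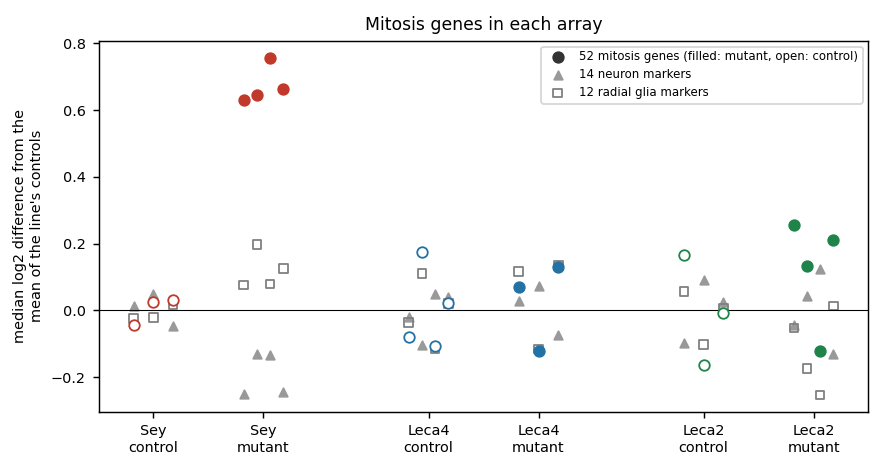
Median log2 difference from the mean of the line's own controls on each of the 21 arrays, for the 52 mitosis genes (filled for mutants, open for controls), 14 neuron markers (triangles) and 12 radial glia markers (squares). The Sey mutants lie at 0.63 to 0.76 for mitosis genes, and mutants and controls of Leca4 and Leca2 overlap between -0.16 and 0.26.

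The Leca4 comparison asks how the genes behave when 1 part of the DNA-binding domain is altered. The change was above 0 for 32 of the 52 genes, beside 52.1% of all genes. The medians of the groups by role ran from -0.01 for the passenger complex to 0.12 for anaphase. The largest changes were those of Cenpf (0.25 ± 0.10), Aspm (0.24 ± 0.10), Cdc25b (0.24 ± 0.10), Espl1 (0.20 ± 0.12) and Ncaph (0.18 ± 0.14). The smallest were those of Spc25 (-0.19 ± 0.13), Spc24 (-0.18 ± 0.11), Cdc25c (-0.14 ± 0.12), Arhgap11a (-0.12 ± 0.07) and Kif20a (-0.09 ± 0.13). The lowest adjusted p was 0.173 in limma, for Aspm. Dimmer probe sets of Cenpf (0.12 and -0.29) and of Aspm (from -0.02 to 0.45) had Leca4 changes of both signs.

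Aspm read 10.10, 10.24, 10.06 and 10.05 in the Leca4 controls and 10.39, 10.42 and 10.24 in the mutants. Cdc25b read 9.45, 9.41, 9.33 and 9.47 against 9.63, 9.56 and 9.76. For these genes and for Espl1 every mutant array lay above every control array, which held for 3 of the 52 genes and for 8.25% of all genes. Top2a, by contrast, read 11.83, 11.95, 11.64 and 11.94 in the controls and 11.97, 11.94 and 11.82 in the mutants. Cdk1 read 11.30, 11.45, 11.17 and 11.37 against 11.30, 11.15 and 11.36, and both genes overlapped between the groups.

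The precision of the Leca4 values limits what could have been seen. The upper bound of the 95% interval of the change was 0.26 in the median over the 52 genes, and 0.47 (Ncaph) at most apart from Pttg1, whose interval reached 0.82. For the 51 genes other than Pttg1 the Leca4 intervals thus ended below the Sey median of 0.67.

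In Leca2 the changes were small and nearly all of 1 sign. They were above 0 for 51 of 52 genes, beside 52.6% of all genes, and Kif18a (-0.06 ± 0.13) was the exception. Since the genes move together between arrays, this count does not stand for 52 separate observations. It holds for the brightest probe set of each gene. Further probe sets of these genes had Leca2 changes of both signs, as with Smc4 (1427276_at, -0.17) and Tpx2 (1428105_at, 0.19). Group medians by role lay between 0.08 (mitotic entry) and 0.18 (condensin and mitotic chromosome). The largest changes were Espl1 (0.42 ± 0.12), Aspm (0.28 ± 0.10), Cenpf (0.25 ± 0.10), Mki67 (0.24 ± 0.14) and Cenpe (0.22 ± 0.10). After Kif18a the smallest were Kif23 (0.01), Ccnb2 (0.03), Mad2l1 (0.03) and Ndc80 (0.04). The dimmer probe sets of Cenpf (0.08 and -0.19) and of Aspm (from -0.49 to 0.28) had both signs in Leca2 as well.

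Espl1 read 9.63, 9.20 and 9.63 in the Leca2 controls and 9.96, 9.72, 9.75 and 10.20 in the mutants (adjusted p = 0.215 in limma, the lowest of the list). Aspm read 10.68, 10.33 and 10.66 against 10.84, 10.77, 10.68 and 11.07 (adjusted p = 0.361). In both genes every mutant array lay above every control, though the lowest Aspm mutant (10.681) and the highest control (10.678) were nearly level, and no other gene of the list showed this. Over all genes 3.26% did. Cenpf, Smc2 and Cenpe had an unadjusted p under 0.05 as well, with overlapping arrays. The upper bound of the 95% interval was 0.35 in the median and 0.67 (Espl1) at most apart from Pttg1 (0.78).

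Differences between the lines were tested as differences between the changes. The Sey change was larger than the Leca4 change for 44 of the 52 genes (6.76% of all genes), with a median difference of 0.67. Bub3, Nuf2, Kif18a, Ncaph, Ect2, Ccnb2, Cdc20 and Pttg1 did not pass. Arhgap11a had the lowest p: its changes were 0.64 in Sey and -0.12 in Leca4, a difference of 0.76 ± 0.09 (adjusted p = 2.2e-05 in limma). For Top2a the changes were 0.91 and 0.07, and the difference 0.84 ± 0.12 (adjusted p = 9.6e-05). With a term for sex 35 genes passed, while over all genes 1285 were called in either direction, in place of 1778. Since line, strain and array normalization go together here, they cannot be told apart from the allele in these differences.

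The Sey change was larger than the Leca2 change for 31 genes (3.43% of all genes), with a median difference of 0.55. For Top2a this difference was 0.75 ± 0.12 (adjusted p = 0.00053 in limma) and for Cdk1 0.58 ± 0.12 (adjusted p = 0.0056). The count depended on single arrays: it was 11 without Leca2 control 1, 15 without Sey control 1 and 20 without Leca2 mutant 3. With a term for sex only Top2a and Arhgap11a passed, at a median difference of 0.51 over the 52 genes and a median standard error of 0.19 in place of 0.16. Over all genes 293 were called in either direction with this term, in place of 927. The Leca2 controls were 3 females and the mutants 2 males and 2 females, while all Sey controls were male. Between the Leca4 and Leca2 changes no gene passed, and the median difference was -0.08. By the adjusted p 2.38% of all genes were called. Arhgap11a (-0.20 ± 0.09) was the 1 gene with an unadjusted p under 0.05 in limma, a threshold at which all genes were not counted.

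Other probe sets of the same genes bear on the Sey values. Of the 52 genes 32 had more than 1 kept probe set, with 55 further probe sets in all. Of these 39 were higher in Sey mutants, 1 was lower and 15 did not pass, with a median change of 0.62. Over all kept probe sets 7.78% were higher. The lower one was a dim probe set of Nek2 (1437579_at, mean log2 level 6.19), with a change of -0.64 ± 0.15 (adjusted p = 0.00575 in limma). It read 5.08, 5.55 and 5.51 in the Sey controls and 4.73, 4.68, 4.61 and 4.93 in the mutants, so that all mutant arrays lay below the level of the filter (5.37 to 5.6 over the arrays) and the controls near it. It was kept through the arrays of the Leca lines, and the Sey difference is one of signals at or near background. The 3 other probe sets of Nek2 were higher in the mutants.

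Bub1 had a second, dimmer probe set (1438571_at) that was higher in all 3 mutants. It read 6.78, 6.81 and 6.93 in the Sey controls and 7.12, 7.94, 8.39 and 8.16 in the mutants (1.06 ± 0.22; adjusted p = 0.0026 in limma). In Leca4 it read 6.78, 6.93, 6.28 and 6.81 against 7.54, 7.41 and 7.84 (0.90 ± 0.22; adjusted p = 0.0283). In Leca2 it read 6.20, 6.05 and 6.31 against 7.84, 7.58, 7.26 and 7.38 (1.33 ± 0.22; adjusted p = 0.0075). On this probe set no mutant array overlapped the littermate controls of any line. The brighter probe set of Bub1 (1424046_at) did not follow in the Leca lines, with changes of 0.03 ± 0.11 in Leca4 and 0.05 ± 0.11 in Leca2, and the reason for the disagreement was not tested. This probe set was the only further one called in either Leca line.

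A wider list of 97 mitosis genes outside the 53 was set beside them, of which 94 were tested. In Sey 73 rose and none fell, with a median of 0.51. The smallest p belonged to Kntc1, which recruits dynein to kinetochores (0.96 ± 0.09), Stil, of centriole assembly (0.99 ± 0.09), Dlgap5, of the spindle (0.78 ± 0.08), Mybl2, the B-MYB factor (0.86 ± 0.09), Wdr62, a spindle pole protein (0.93 ± 0.11), and Foxm1, a transcription factor of G2 genes (0.76 ± 0.09). Adjusted p-values of these 6 lay between 2.8e-07 and 4.2e-06 in limma. The cohesin genes were divided: Smc1a (0.28), Smc3 (0.21), Stag1 (0.35) and the regulators Cdca5 (0.76) and Esco2 (0.72) rose, while Rad21 (0.10), Stag2 (0.09) and the regulators Nipbl (0.02), Pds5a (0.33), Pds5b (0.01) and Wapl (-0.12) were among the 21 that did not pass. Of the anaphase-promoting complex the subunit Cdc23 (0.25) and the activator Fzr1 (0.22) rose, and the subunits Anapc1 (0.21), Anapc5 (0.11), Cdc16 (0.15), Cdc26 (0.03) and Cdc27 (0.03) did not pass.

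In Leca4 the shugoshin gene Sgo2a rose among these 94 (0.37 ± 0.09; adjusted p = 0.021 in limma), and in Leca2 the centriole gene Cep152 did (0.31 ± 0.06; adjusted p = 0.0116). Neither call held with the arrays of the line alone, that of Sgo2a was lost without Leca4 mutant 3, control 3 or control 4, and that of Cep152 without Leca2 control 1. Of 35 genes of DNA replication, the phase before, 34 rose in Sey, with a median of 0.64, and none was called in Leca4 or in Leca2. Their promoter windows held CCAAT as often (62.1% of 29) as those of the other mitosis genes (62% of 79), and TTTGAA in 13.8% against 43%.

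Markers of cell types were measured in the same comparisons. In Sey 7 of 14 neuron markers fell and 1 rose (median -0.19), and the summed signal of the 14 was 15.48 to 15.56 on the controls and 15.30 to 15.38 on the mutants. Of 8 intermediate progenitor markers 4 fell and 2 rose (median -0.44), and the change was above 0 for 4 of the 8. Eomes (-1.64 ± 0.10) and Neurod4 (-2.62 ± 0.13) were among those that fell, and Gadd45g had the highest change (0.90). The summed signal of the 8 was 14.04 to 14.06 on the controls and 13.48 to 13.69 on the mutants. Of 12 radial glia markers 4 rose, the mutated gene Pax6 among them, and 1 fell (median 0.09). The lowest change was that of Slc1a3 (-1.44) and the highest that of Hopx (0.56). The summed signal of the 12 was 15.12 to 15.16 on the controls and 15.18 to 15.35 on the mutants. Ventral progenitor and interneuron markers rose in 9 of 12 cases (median 2.80), and their summed signal went from 10.80 to 11.15 on the controls to 13.55 to 14.13 on the mutants. None of 13 markers of vessels, blood and meninges was called in limma. The part of these shifts in the rise of the mitosis genes was not tested.

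Of 7 cortex markers 4 fell in Sey (Tbr1, Bcl11b, Neurod6 and Fezf2) and Emx2 and Lhx2 rose, all at log2 levels of 9 or more in every group. In Leca4 no neuron, intermediate progenitor, ventral or cortex marker was called, but the radial glia markers Hopx (1.66 ± 0.14) and Pax6 (0.49 ± 0.09) rose, Slc1a3 fell (-0.37 ± 0.10), and the microglial genes Csf1r (0.42 ± 0.10) and Cx3cr1 (0.33 ± 0.10) of the vascular, blood and meningeal list rose. In Leca2 Neurod4 fell (-1.49 ± 0.13) and Pax6 rose, and no other marker was called. As a measure of RNA quality, the 3′ signal of the Gapdh control probe sets less their 5′ signal (log2) moved by -0.0020, 0.07 and 0.06 between mutants and controls of Sey, Leca4 and Leca2. Arrays of a group correlated with r between 0.9931 and 0.9972.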

How the data were processed

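Total RNA was extracted, amplified, labelled with biotin and hybridized to 1 Affymetrix array per sample, per the labels' protocols. The deposited values are log2 expression values per probe set, made by the authors with RMA per the submitters' processing notes; the sources used here do not give its version or settings. Array medians agreed within lines and differed between them, and levels were therefore compared within a line only.

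Of 45101 probe sets, those above the 40th percentile of the array (log2 5.37 to 5.6) on at least 3 arrays were kept (29474, of which 25140 name 1 gene in the platform annotation). The brightest per gene gave 13850 genes. Linear models of 6 groups over 21 arrays were fitted with limma 3.58.1 under R 4.3.3 (lmFit and eBayes; 15 residual and 3.54 prior degrees of freedom), two-sided, with Benjamini-Hochberg adjustment over all genes per contrast and a threshold of 0.05. Errors after a change are standard errors of the fit. Summed signals are log2 of the sum of linear values over a list. The steps were tested on simulated data. The number of arrays limits the precision.

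The 53 genes and the other lists were chosen with earlier results of these data known. Array values are given for genes picked by their textbook standing, and the largest and smallest changes per role and per comparison are named; array values for Bub3, Espl1 and the further probe sets of Pttg1, Bub1 and Nek2 were added after they were seen. Promoter windows came from a RefSeq table of GRCm38.p6, the first listed per gene; Spc24, Aurkb, Incenp, Tpx2, Smc4, Kif20a, Ccna2 and Cdc25c were not matched. Every kept probe set on its own was a setting added after the data were seen. The other settings were no filter or a stricter one, other choices of probe set, array weights, a trend and robust variance, quantile normalization or centring, fits of single lines, a looser p, a least change, a replicate block, a term for sex, pooled 129 S6 controls and leaving out each array.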

Additional observations from a re-analysis of the deposited data

Results flagged for a closer look

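In groups of 4 arrays, 3 named genes had 1 array far from the other 3. Aurkb read 9.78 on Sey mutant 3, with the nearest array at 9.63. Birc5 read 10.58 on Leca2 mutant 3 (nearest 10.95), and Cdk1 read 11.05 on the same array (nearest 11.36). Chance gives about 1 in 20 such groups, and 63 were looked at. Leca2 mutant 3 was also the array with the lowest median of the 52 genes among the Leca2 mutants.

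The changes of the mitosis genes differed between lines by the test of the difference in limma. A larger change in Sey than in Leca4 was called for 44 genes (6.76% of all genes). A larger change in Sey than in Leca2 was called for 31 (3.43% of all genes). With a term for sex these counts were 35 and 2. Line, strain and array normalization cannot be told apart from the allele here.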

How the results depend on the processing

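The Sey count lay between 46 and 50 genes and the Sey median between 0.62 and 0.69 over all settings tried, with 49 to 50 genes and 0.65 to 0.69 when single arrays were left out. With each gene's second probe set Ttk, Nusap1, Anln (0.46, adjusted p = 0.0930 in limma) and Spc25 were lost. The 20 genes with only 1 kept probe set were read from that same probe set in this setting. In Leca4 and in Leca2 no gene was called in most settings. Exceptions were 1 gene in each line when the probe sets of a gene were averaged or the second one was used (Bub1, in both), and 1 gene in Leca2 with the controls of both 129 S6 lines together (Espl1). The Espl1 call draws on arrays of both lines, whose deposited array medians differ. Leaving out single arrays gave 0 genes in each, and medians from -0.03 to 0.10 in Leca4 and from 0.03 to 0.20 in Leca2. The difference between Sey and Leca4 gave 32 to 45 genes without single arrays, that between Sey and Leca2 gave 11 to 39, and with a term for sex 2; that between Leca4 and Leca2 gave 0 throughout.

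Deviations of samples with the same replicate number correlated by -0.44 to 0.34. With 3 or 4 arrays a group, these values cannot settle whether the numbers pair the samples. With the replicate number as a block, 48 genes were called in Sey, 25 in the difference from Leca4 and 14 in that from Leca2. All values rest on 3 or 4 arrays a group, and signal near background limits the dim probe sets.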
